A study of Oryctolagus cuniculus with 4 samples.

Results

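The genes described here encode chemokines, interleukins, members of the tumor necrosis factor family and their receptors, immunoglobulin chains and leukocyte antigens. They were measured in rabbit blastocysts that developed with or without fertilisation. Members were the non-control probes whose description on the array named a chemokine, an interleukin, tumor necrosis factor or an immunoglobulin heavy, kappa or lambda chain, together with the probes of PTPRC, CD3E, CD4, CD14, CD68, LCP1 and TYROBP, and without the polymeric immunoglobulin receptor. The rule found 373 of 43603 probes, which stood for 169 of 15057 gene or transcript names. TYROBP had no probe under its name, so 6 of the 7 listed antigens were measured.

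Parthenotes and controls were New Zealand White blastocysts recovered at day 6. Parthenotes came from ovulated oocytes that were activated by electrical pulses, exposed to cycloheximide and 6-DMAP and then transferred by laparoscopy into the oviducts of recipient does. Controls came from inseminated does and were flushed from the uterus. Each of the 4 arrays received RNA from a pool of parthenotes in Cy3 and RNA from a pool of fertilised embryos in Cy5, and the dyes were never swapped. A dye effect and a group effect therefore cannot be told apart for any probe. The procedures also differed (activation, laparoscopic transfer, recipient does), and their effects cannot be told apart from parthenogenesis.

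Chemokines are small secreted proteins that attract leukocytes through receptors with several membrane-spanning helices. Interleukins and tumor necrosis factor ligands carry signals between cells, mostly of the immune system, through receptors that act on JAK-STAT and NF-kappaB pathways. In the reproductive tract these molecules come both from leukocytes and from epithelium, and the preimplantation embryo is known to express some ligands and receptors itself. Because pools of whole embryos were measured, fewer cells of a type and less RNA per cell cannot be told apart.

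Most of the members were dim. A probe counts as detected here when, on each of the 4 arrays, the scanner software placed 1 or both of its channels well above background. By this measure 129 of the 373 probes were detected (34.6%, against 61.3% of all probes), and 194 were above background in neither channel on any array (52.0%, against 30.9%). No member spot was saturated. In limma, 61 of the 372 member probes tested differed between the groups at an adjusted p under 0.05 (16.4%), beside 20.6% of all 43595 probes tested. Of these, 43 were higher in parthenotes (11.6%, beside 9.53% of all probes) and 18 were lower (4.84%, beside 11.1%). The median log2 ratio of parthenote over fertilised was 0.00 over the members and 0.00 over all probes. The software sets the ratio to 0 where both channels are too dim to measure, which weighs on these medians. Without those zeros, ratios of the processed intensities had medians of 0.33 and 0.08, although such dim probes are not measured either way. Among detected probes, 39 of 128 members passed (30.5%) beside 29.9% of all such probes, with 25 higher (beside 13.6% of all detected probes) and 14 lower (beside 16.2%). With each gene given by its brightest probe, 34 of 169 passed, 19 higher and 15 lower, beside 23.8% of all named genes (11.6% higher and 12.2% lower). These sets are unlike, since the 169 include transcripts without a gene symbol, such as cloned antibody chains. At background on every array were 43.2% of the 169 and 18.2% of all named genes. Of the 64 detected genes 24 passed, 13 higher and 11 lower, beside 29.7% of all detected genes (14.5% higher and 15.2% lower). Of the 61 calls, 22 lay outside that set and 11 were on probes at background in both channels on every array, for which no fold is given. The count depended on single arrays, with 47 member probes passing without array 1, 16 without array 2, 15 without array 3 and 12 without array 4.

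**Figure D1:**
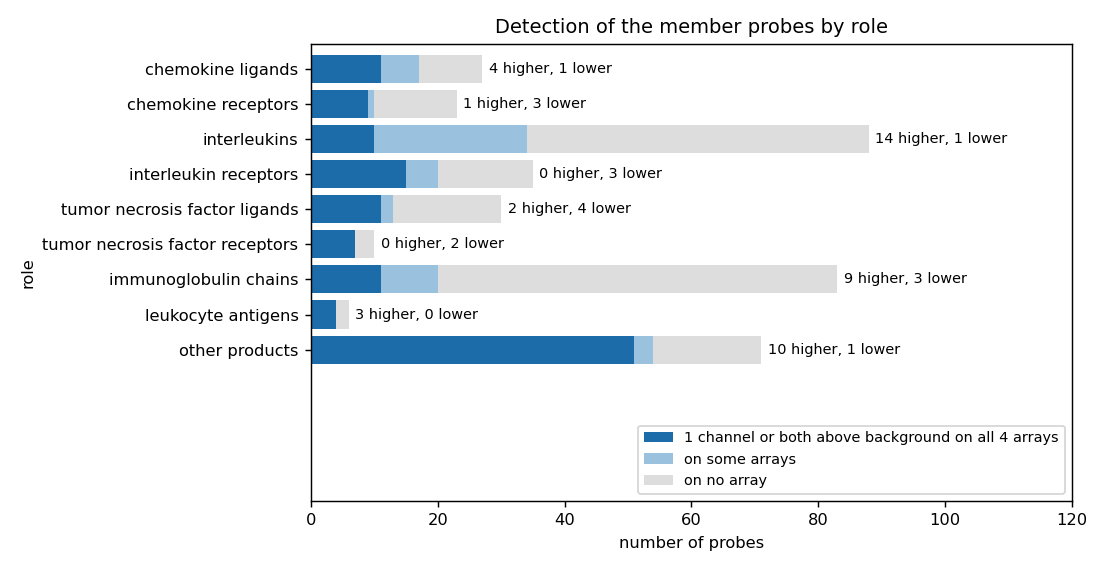
Number of member probes (x axis) in each role (y axis), split by the number of arrays with a channel well above background. The text beside each bar gives the probes higher or lower in parthenotes in limma. Interleukins and immunoglobulin chains had the most probes at background on every array, and of the 14 interleukin probes that were higher in parthenotes 7 were of IL15.

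Among the chemokine ligands, CCL2 was the member with a clear rise. CCL2 attracts monocytes, memory T cells and dendritic cells. The processed intensity of its brightest probe was 70.5, 131, 132 and 107 in parthenotes on arrays 1 to 4, and 20.6, 17.9, 15.9 and 13.9 in fertilised embryos. All parthenote pools lay above all fertilised pools, and array 1 had the smallest difference. The mean log2 ratio was 2.66 ± 0.60 (SD, n = 4), which is 6.32-fold, at an adjusted p of 0.0178 by limma. That p was 0.0177 without array 1 and between 0.077 and 0.095 when another array was left out. A second well-measured CCL2 probe gave 2.30 ± 0.57 (adjusted p = 0.021). The remaining pair of CCL2 probes was above background in parthenotes on 3 arrays and in fertilised embryos on 0. Expressed as bounds, these were at least 1.60-fold and at least 1.27-fold higher in parthenotes, and the second missed the threshold (adjusted p = 0.028 and 0.057).

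CCL5, which attracts T cells, monocytes and eosinophils, was close to background. Its probe is shown because it marks the end of the coding sequence (capitals, the stop codon). The array places it at chr19:24923985-24924044 on the minus strand, in a build that the array files do not name, and at base 216 of the transcript.
CCL5: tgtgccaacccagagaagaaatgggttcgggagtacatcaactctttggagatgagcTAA
Its processed intensity was 7.18, 10.04, 20.7 and 11.0 in parthenotes and 3.15, 2.98, 3.09 and 2.80 in fertilised embryos. It was well above background on 1 array in parthenotes and on 0 in fertilised embryos, so no size is given. It passed as higher in parthenotes (adjusted p = 0.034).

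Other chemokine ligands among the members did not pass as higher. The study also lists CCL20 and CCL28 as higher in parthenotes. Neither was found by the description rule, so neither was examined here. CCL4, which attracts monocytes and T cells, gave log2 ratios between -0.41 and -0.34 over 5 probes, of which 0 passed (the brightest had -0.34). CXCL8, which attracts neutrophils, had a brightest probe that passed with a small log2 ratio of -0.18 ± 0.06 (adjusted p = 0.038). Its intensity there was 36.3 to 41.3 in parthenotes and 42.2 to 49.0 in fertilised embryos. The 7 CXCL8 probes disagreed, running from -0.54 to 1.03, and their mean was 0.28. CCL27, a chemokine of epithelial surfaces, gave 0.52 ± 0.46 (adjusted p = 0.19). In all, 5 of 27 ligand probes passed (18.5%, beside 20.6% of all probes), 4 higher and 1 lower.

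Of 23 chemokine receptor probes, 3 were lower in parthenotes (13%, beside 11.1% of all probes) and 1 was higher (4.35%, beside 9.53%). Of the 5 receptor genes with a detected brightest probe, ACKR3, CXCR5 and CXCR2 were lower in parthenotes and CXCR1 and CXCR4 did not pass. Each is shown by its probe, since these receptors carried the lower values. The probes start at bases 979, 810 and 553 of their transcripts. The array maps the CXCR2 probe to chr7:159500545-159500603, plus strand, of the unnamed build, and leaves the other two unmapped. No base is capitalised.
ACKR3: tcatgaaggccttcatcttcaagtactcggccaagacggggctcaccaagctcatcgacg
CXCR5: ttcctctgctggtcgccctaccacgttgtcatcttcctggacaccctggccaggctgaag
CXCR2: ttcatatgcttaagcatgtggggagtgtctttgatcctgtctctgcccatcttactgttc

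ACKR3, named CXCR7 on the array, is an atypical receptor that takes up CXCL12 and CXCL11 without classical G protein signalling. Its processed intensity was 35.2, 34.8, 19.3 and 22.9 in parthenotes and 85.8, 119, 60.4 and 80.5 in fertilised embryos. The groups did not overlap, and the log2 ratio was -1.63 ± 0.24 (SD, n = 4), or 3.09-fold lower in parthenotes (adjusted p = 0.010). CXCR5, the receptor for CXCL13 that guides B cells to follicles, gave 42.8, 48.2, 36.1 and 32.2 in parthenotes against 131, 109, 111 and 93.6 in fertilised embryos. Its log2 ratio was -1.49 ± 0.21 (adjusted p = 0.0099). CXCR2, a receptor for CXCL8, gave 78.9, 100, 79.4 and 74.4 against 142, 173, 141 and 121. Its log2 ratio was -0.79 ± 0.07 (adjusted p = 0.0056), and it passed with any single array left out (0.024 to 0.041). ACKR3 had an adjusted p of 0.056 to 0.064 without array 2, 3 or 4, and CXCR5 had 0.051 and 0.067 without array 3 or 4.

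CXCR1, the other CXCL8 receptor, had a log2 ratio of 0.15 ± 0.09 (adjusted p = 0.086). CXCR4, the signalling receptor for CXCL12, had 5 probes between -0.20 and -0.09, of which 0 passed. On array 1 its brightest probe gave 74.1 in parthenotes and 122 in fertilised embryos, whereas on the other arrays the values lay between 83.1 and 102 in both groups. ACKR4, another atypical receptor, passed the test in the higher direction (adjusted p = 0.031), although its probe was not well above background in either channel on any array. Of 23 receptor probes, 13 were at background throughout.

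**Figure D2:**
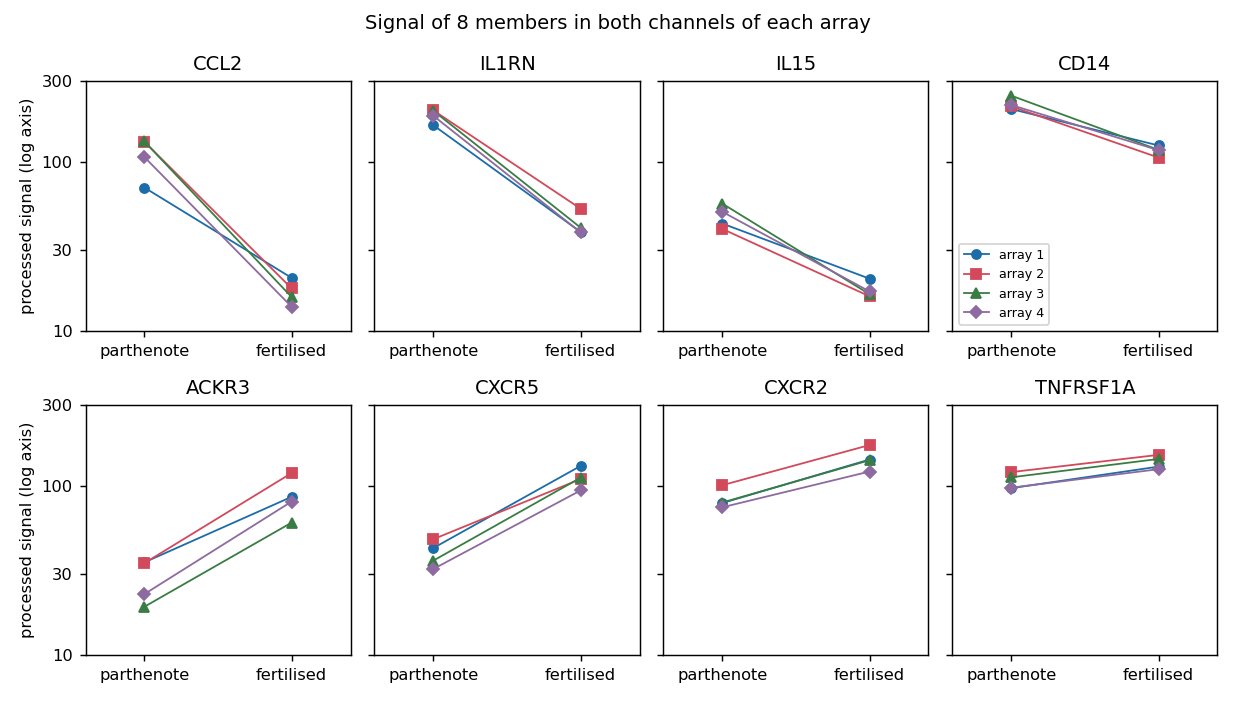
Processed intensity (y axis, log scale) of the brightest probe of 8 members in the parthenote and the fertilised channel (x axis), with a line for each of the 4 arrays. CCL2, IL1RN, IL15 and CD14 fell from parthenote to fertilised on every array, and ACKR3, CXCR5, CXCR2 and TNFRSF1A rose.

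Of 88 interleukin probes, 14 were higher in parthenotes (15.9%, beside 9.53% of all probes) and 1 was lower (1.14%, beside 11.1%). By brightest probe, 4 of 31 interleukin genes were higher (12.9%, beside 11.6% of all named genes), and 7 of the 14 probes were of IL15. The 14 belonged to 6 genes: IL15, IL1RN, IL6, IL1B, IL18 and IL17B. IL15 supports natural killer and memory CD8 T cells, and each of its 7 probes passed. These are not independent. The first 6 start between bases 414 and 418 of the transcript, 2 of them with the same sequence, and the last starts at base 521. The outermost of the overlapping probes are shown with their 56 shared bases in capitals. The array places them on the minus strand of chromosome 15 between 22774151 and 22776817 (build not named), a span of 2663 bases for each 60-base probe.
IL15 (probe A_04_P075351): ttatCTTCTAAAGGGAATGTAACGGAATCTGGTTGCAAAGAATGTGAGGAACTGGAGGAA
IL15 (probe A_04_P075347): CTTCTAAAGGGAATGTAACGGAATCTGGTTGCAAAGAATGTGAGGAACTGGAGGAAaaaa

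The brightest IL15 probe, the one starting at base 521, gave 43.2, 40.2, 56.7 and 50.7 in parthenotes and 20.4, 16.1, 16.5 and 17.2 in fertilised embryos. It was well above background on all arrays in both groups, which did not overlap. Its log2 ratio was 1.44 ± 0.30 (SD, n = 4), or 2.71-fold (adjusted p = 0.016), and was 0.035 without array 1 and 0.056 to 0.091 without another. The overlapping probes were above background in fertilised embryos on 0 arrays. The 3 that were above background on all arrays in parthenotes (A_04_P075348, A_04_P075349 and A_04_P075351) were at least 1.44-fold, 1.50-fold and 1.42-fold higher there. Their adjusted p was 0.020, 0.028 and 0.0082.

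IL1RN encodes the antagonist that occupies the interleukin-1 receptor without signalling. The array describes its probes as the interleukin 1 receptor type I, IL1R1, while the rabbit gene table pairs that transcript with IL1RN. A probe of each transcript is printed here to keep them apart, with the stop codon of IL1R1 in capitals. The former lies at chr2:97877444-97877503 on the plus strand and the latter at chr2:90255115-90255174 on the minus strand, 7.62 Mb apart in the unnamed build.
IL1RN: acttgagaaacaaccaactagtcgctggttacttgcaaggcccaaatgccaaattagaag
IL1R1: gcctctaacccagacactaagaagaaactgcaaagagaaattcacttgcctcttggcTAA
The brightest IL1RN probe gave 164, 201, 200 and 187 in parthenotes against 38.5, 52.9, 40.9 and 38.3 in fertilised embryos. The log2 ratio was 2.15 ± 0.18 (SD, n = 4), or 4.44-fold (adjusted p = 0.0055), and passed with any single array left out (0.026 to 0.042). A second probe gave 2.21 ± 0.22 (adjusted p = 0.0066). The IL1RN probe printed above, which starts at base 177 of the transcript, was at background in both groups on all arrays and carried a ratio of 0.00. IL1R1 itself gave 19.7, 13.2, 8.35 and 9.10 in parthenotes and 15.6, 15.4, 16.4 and 13.5 in fertilised embryos. It was above background on 1 parthenote array and on 4 fertilised arrays, and its log2 ratio of -0.36 ± 0.55 did not pass (adjusted p = 0.43).

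IL1B, IL6 and IL18, cytokines of the inflammatory response, lay near the detection limit and varied between arrays. The IL1B probe that passed was above background on 3 parthenote arrays and 0 fertilised arrays. Its intensity was 10.9, 20.1, 28.2 and 22.6 in parthenotes and 2.49 to 3.09 in fertilised embryos, at least 1.24-fold higher (adjusted p = 0.020). The other pair of IL1B probes was at background throughout. IL6 passed on 2 of 5 nearly identical probes. On one of them array 1 stood out, with 58.9 in the parthenote channel against 12.8, 14.5 and 14.4 on the others, and 2.51 to 2.68 in fertilised embryos. These IL6 probes were above background on 2 parthenote arrays and 0 fertilised arrays, so no size is given (adjusted p = 0.035 and 0.022). The brightest IL6 probe, with 41.8 in parthenotes and 40.1 in fertilised embryos on array 2, gave a log2 ratio of 1.27 ± 1.17. It did not pass (adjusted p = 0.20). IL18 showed another order, since on the probe that passed arrays 3 and 4 gave 51.8 and 27.0 in parthenotes and arrays 1 and 2 gave 9.95 and 11.0. That probe was above background on 2 parthenote arrays and 0 fertilised arrays, so no size is given (adjusted p = 0.045). The remaining 6 IL18 probes, above background on 0 fertilised arrays, did not pass.

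**Figure D3:**
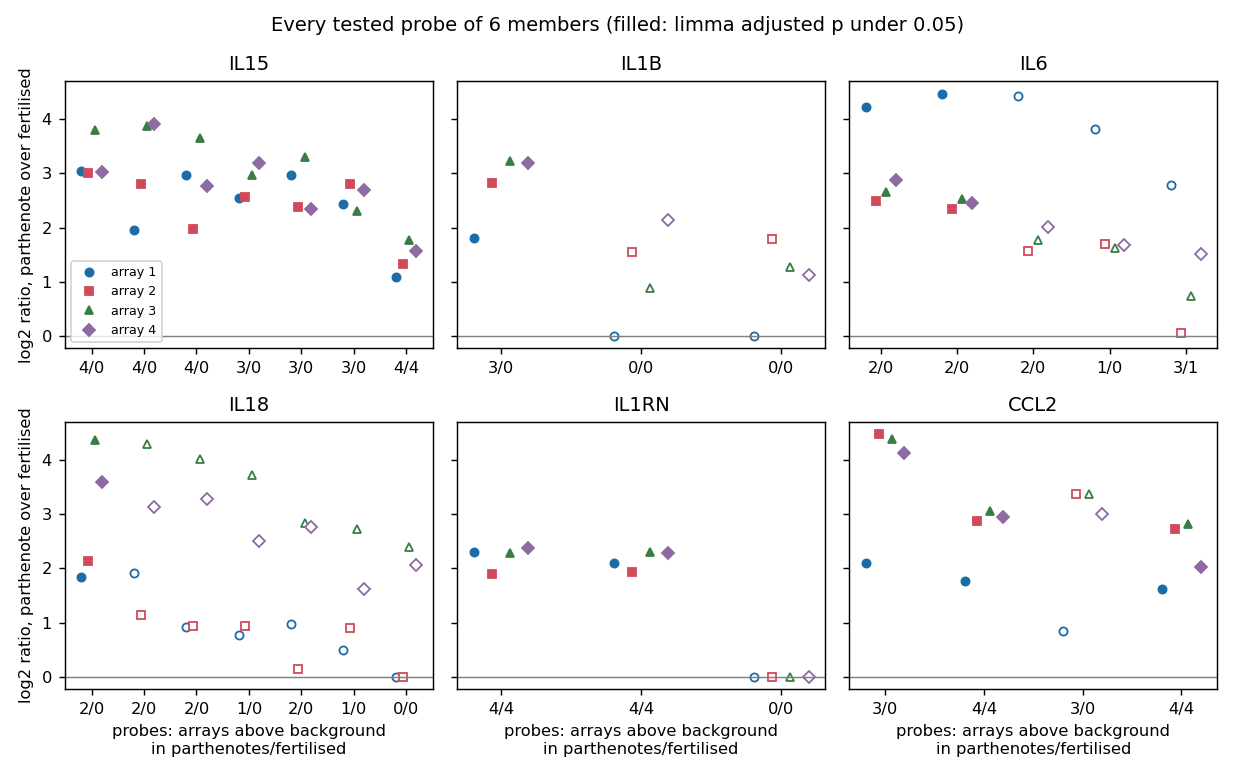
Log2 ratio of parthenote over fertilised (y axis) on each array for every tested probe of 6 members. Labels on the x axis give the number of arrays on which the probe was well above background in parthenotes and in fertilised embryos, and filled symbols passed limma. Array 1 is highest for IL6 and lowest for CCL2, arrays 3 and 4 are highest for IL18, and the background IL1RN probe sits at 0.

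IL17B passed with a small log2 ratio of 0.21 ± 0.09 (adjusted p = 0.049), and its intensities overlapped between the groups. IL12A, a subunit of interleukin-12, was the gene with the probe that was lower (adjusted p = 0.030). That probe was above background on 1 fertilised array and on 0 parthenote arrays, so no size is given. IL9, a product of T and mast cells, was uneven, with 6.56, 27.5, 7.31 and 62.1 in parthenotes against 71.1, 81.8, 37.1 and 102 in fertilised embryos. It was above background on 2 parthenote and 4 fertilised arrays, and its log2 ratio of -2.02 ± 1.16 had 1 sign on all 4 arrays and did not pass (adjusted p = 0.088).

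Of 35 interleukin receptor probes, 3 passed (8.57%, beside 20.6% of all probes), and each was lower in parthenotes (beside 11.1% of all probes). IL6ST, the shared signalling chain gp130, passed on 1 of 2 probes. That probe gave 215, 293, 242 and 258 in parthenotes against 363, 413, 351 and 320 in fertilised embryos (log2 ratio -0.52 ± 0.18, adjusted p = 0.036), whereas the brighter probe gave -0.15 ± 0.21 (adjusted p = 0.38). An IL2RA-like transcript was above background on 4 fertilised arrays and 0 parthenote arrays, at 13.2 to 17.1 against 7.52 to 11.6. It was at least 1.04-fold lower in parthenotes (adjusted p = 0.042), and its ratio changed sign, to a log2 value of 0.077, with normexp and median centring. IL1RAPL2 passed at background. IL4R, which binds interleukin-4 and interleukin-13, was among the bright receptors at 3002 to 4356 in parthenotes and 3364 to 3780 in fertilised embryos, with a log2 ratio of 0.08 ± 0.28 (adjusted p = 0.75).

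Of 30 probes for ligands of the tumor necrosis factor family, 2 were higher (6.67%, beside 9.53% of all probes) and 4 were lower (13.3%, beside 11.1%). TNFSF13B, the B cell survival factor BAFF, gave 29.9, 34.4, 17.4 and 24.9 in parthenotes and 12.0, 20.1, 4.96 and 7.15 in fertilised embryos. The ratio was above 0 on all arrays, although a parthenote pool lay below a fertilised pool of another array. The log2 ratio was 1.43 ± 0.49 (SD, n = 4, adjusted p = 0.035) for a probe above background on 4 parthenote arrays and 1 fertilised array. The other 3 TNFSF13B probes were at background in both groups and carried a ratio of 0.00. CD70, the ligand of CD27, rose by 0.51 ± 0.20 (adjusted p = 0.043). TNFSF13, the related factor APRIL, was lower on 2 of 4 overlapping probes, with -0.78 and -0.73 (adjusted p = 0.027 and 0.033), and its brightest probe gave -0.72 ± 0.33 (adjusted p = 0.058). TNFSF14, a ligand of the lymphotoxin beta receptor, was lower at -1.0 ± 0.41 (adjusted p = 0.048), with 29.5, 15.4, 12.2 and 13.3 in parthenotes, above background on 1 array, against 40.1, 36.7, 31.6 and 25.4 on 4. TNFSF4 passed on 1 probe that was at background throughout. TNF itself gave 0.62 ± 0.39 on its brightest probe (adjusted p = 0.10), and TNFSF10, the death ligand TRAIL, gave 0.95 ± 0.70 (adjusted p = 0.14), its parthenote value on array 3 being 130 against 48.4 to 78.4 on the others.

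Of 10 probes for tumor necrosis factor receptors, 2 passed, both lower (20.0%, beside 11.1% of all probes). TNFRSF1A, the main receptor for TNF, gave 96.5, 120, 112 and 97.1 in parthenotes against 129, 152, 144 and 125 in fertilised embryos. The groups did not overlap, and the log2 ratio of -0.37 ± 0.04 (adjusted p = 0.0067) was small and even across arrays. It missed the threshold without array 4 (adjusted p = 0.051). RELL1, a relative of the receptor RELT, was lower by a log2 ratio of -0.30 ± 0.09 (adjusted p = 0.028).

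**Figure D4:**
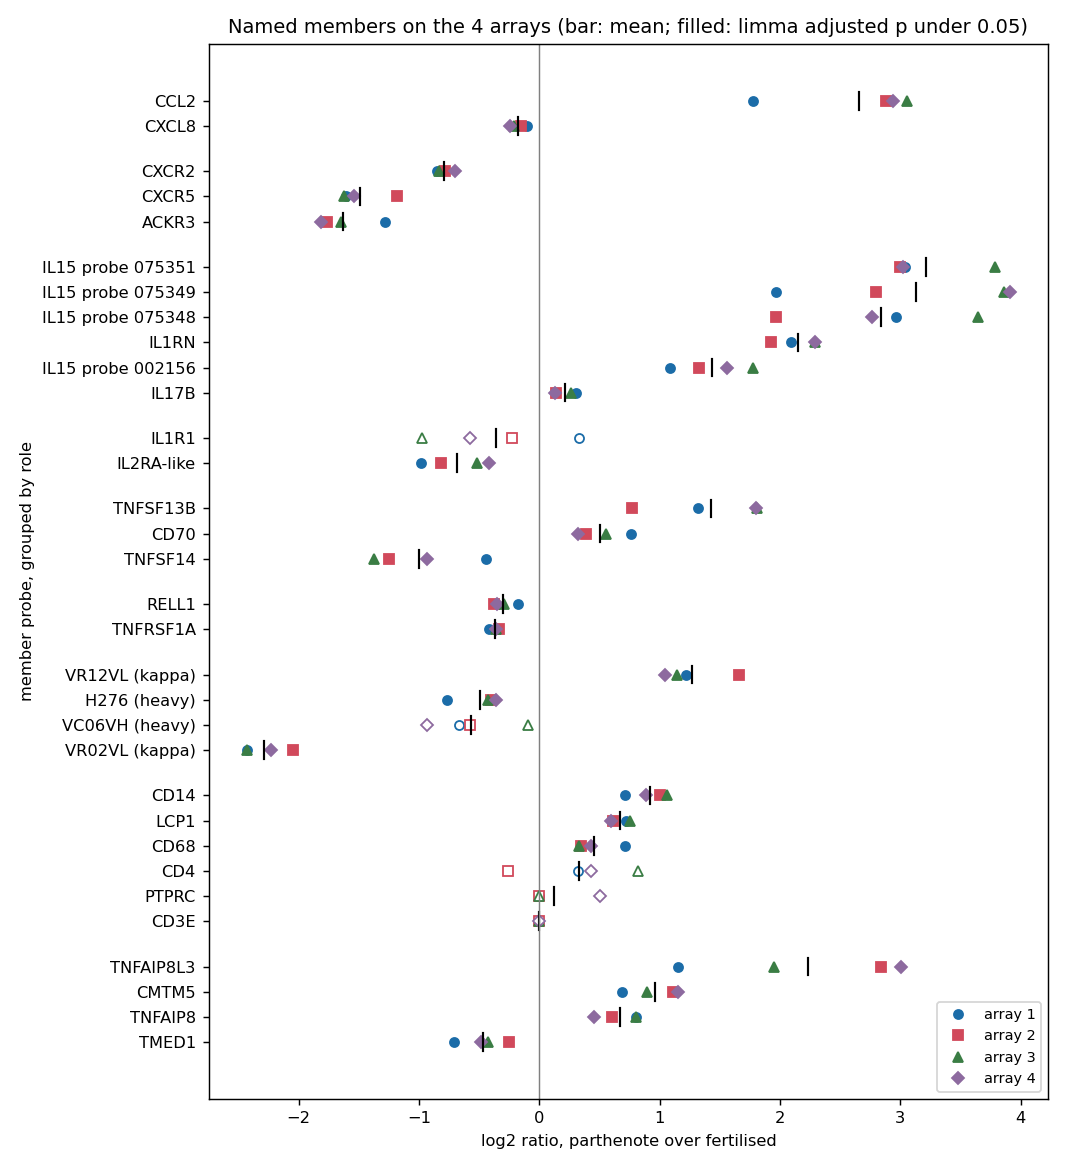
Log2 ratio of parthenote over fertilised (x axis) of the members named by the fixed rule, grouped by role (y axis), with a symbol for each of the 4 arrays and a bar for the mean. Filled symbols passed limma. CCL2, IL15, IL1RN and TNFAIP8L3 lie to the right of 1 on every array, and ACKR3, CXCR5 and VR02VL to the left of -1.

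Immunoglobulin probes were mostly at background, 63 of 83 in both channels on every array, and 12 passed (14.5%, beside 20.6% of all probes), of which 8 were at background throughout. These probes match cloned antibody transcripts, whose variable regions resemble each other, so a signal cannot be assigned to 1 clone. A pair of kappa light chain clones had opposite directions and are shown for that reason. In VR02VL the capitals mark the first complementarity-determining region, between the conserved cysteine and tryptophan codons. In VR12VL they mark the conserved motif of the joining segment. The array lists 4 transcripts for the former and 1 for the latter, and places the former at chr2:98788952-98789011 on the minus strand of the unnamed build.
VR02VL: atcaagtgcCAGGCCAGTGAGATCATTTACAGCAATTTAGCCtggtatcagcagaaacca
VR12VL: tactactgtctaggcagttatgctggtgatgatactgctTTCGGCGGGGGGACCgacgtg
VR02VL gave 4.54, 5.56, 4.21 and 3.83 in parthenotes against 24.4, 22.9, 22.7 and 18.0 in fertilised embryos. It was above background on 0 parthenote arrays and 4 fertilised arrays, and was at least 1.22-fold lower in parthenotes (adjusted p = 0.0055). VR12VL gave 24.9, 27.1, 22.4 and 22.5 in parthenotes against 8.57 to 11.0 in fertilised embryos, was above background on 4 and 0 arrays, and was at least 1.30-fold higher in parthenotes (adjusted p = 0.017). Among heavy chains, the H276 IgA transcript was measured in both groups and was lower in parthenotes by a log2 ratio of -0.49 ± 0.19 (adjusted p = 0.0415). VC06VH was above background on 0 parthenote and 4 fertilised arrays, at 10.2 to 17.8 against 18.2 to 25.0, and did not pass (adjusted p = 0.10).

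Of the 6 leukocyte antigens, CD14, LCP1 and CD68 were higher in parthenotes (50%, beside 11.6% of all named genes). PTPRC, the antigen CD45 that defines leukocytes, and CD3E, a chain of the T cell receptor complex, were above background in neither group on any array. CD14, the co-receptor for lipopolysaccharide, gave 205, 213, 246 and 217 in parthenotes against 125, 106, 118 and 117 in fertilised embryos, a log2 ratio of 0.92 ± 0.15 (SD, n = 4, adjusted p = 0.012). Without array 2, 3 or 4 that p lay between 0.053 and 0.076. LCP1, the leukocyte plastin that bundles actin, gave 62.2, 67.8, 70.5 and 56.6 against 37.8, 44.3, 41.8 and 37.5. Its log2 ratio was 0.67 ± 0.08 (adjusted p = 0.0081) and passed with any single array left out (0.033 to 0.048). The array describes this probe as plastin 3-like, so its assignment to LCP1 rests on the rabbit gene table. CD68, a lysosomal protein of macrophages, rose by 0.45 ± 0.18 (adjusted p = 0.043), with 75.7 to 94.0 against 57.5 to 70.9. Its adjusted p was 0.036 without array 1 and 0.12 to 0.16 without another. CD4, the co-receptor of helper T cells, gave 26.2, 18.9, 30.8 and 34.3 against 21.0, 22.6, 17.4 and 25.4, and did not pass (0.33 ± 0.45, adjusted p = 0.36). The summed processed intensity of the 6 antigens was 393 to 429 in parthenotes and 242 to 249 in fertilised embryos.

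Some markers of other cell types moved in the same samples. Of 13 leukocyte genes outside the members, ITGB2 (0.60), CD48 (1.85) and the neutrophil protein S100A9 were higher in parthenotes. This was 23.1%, beside 11.6% of all named genes, and 0 were lower, beside 12.2%. S100A9 was above background on 3 parthenote arrays and on 0 fertilised arrays (adjusted p = 0.014), so no size is given for it. The median log2 ratio of the 13 was 0.20, and their summed processed intensity was 1400 to 1564 in parthenotes against 1073 to 1180 in fertilised embryos. Within that list CD8A (-0.18), the B cell gene MS4A1 (0.09), CD79B (0.20), ITGAM (-0.02), LAPTM5 (0.09) and CORO1A (0.25) did not pass. Each of these was above background in both groups on all arrays. The T cell gene CD2 was at background throughout. Of 8 genes of secretory and ciliated epithelium of oviduct and uterus, 6 were higher (75%, beside 11.6% of all named genes). OVGP1 gave 3.87 and SCGB1A1 gave 2.75, and the sum of the 8 was 6875 to 29095 against 1012 to 2755. The epithelial gene FOXJ1 was at background throughout. Of 2 erythroid genes, ALAS2 was higher at 1.94 (50%, beside 11.6% of all named genes). SLC4A1, above background on 1 fertilised array and 0 parthenote arrays, had a ratio below 0 on all 4 arrays. It did not pass (adjusted p = 0.078 in limma). Of 6 blastocyst genes, 5 were above background in both groups on all arrays and ELF5 was not on any. KRT8 (0.58) and POU5F1 (0.21) were higher (33.3% of the 6, beside 11.6% of all named genes). GATA3 (0.12), TFAP2C (-0.31) and GATA4 (-0.34) did not pass. The part of these cells in the values of CCL2, IL15, IL1RN, IL1B, CD14, LCP1 and CD68 was not tested.

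**Figure D5:**
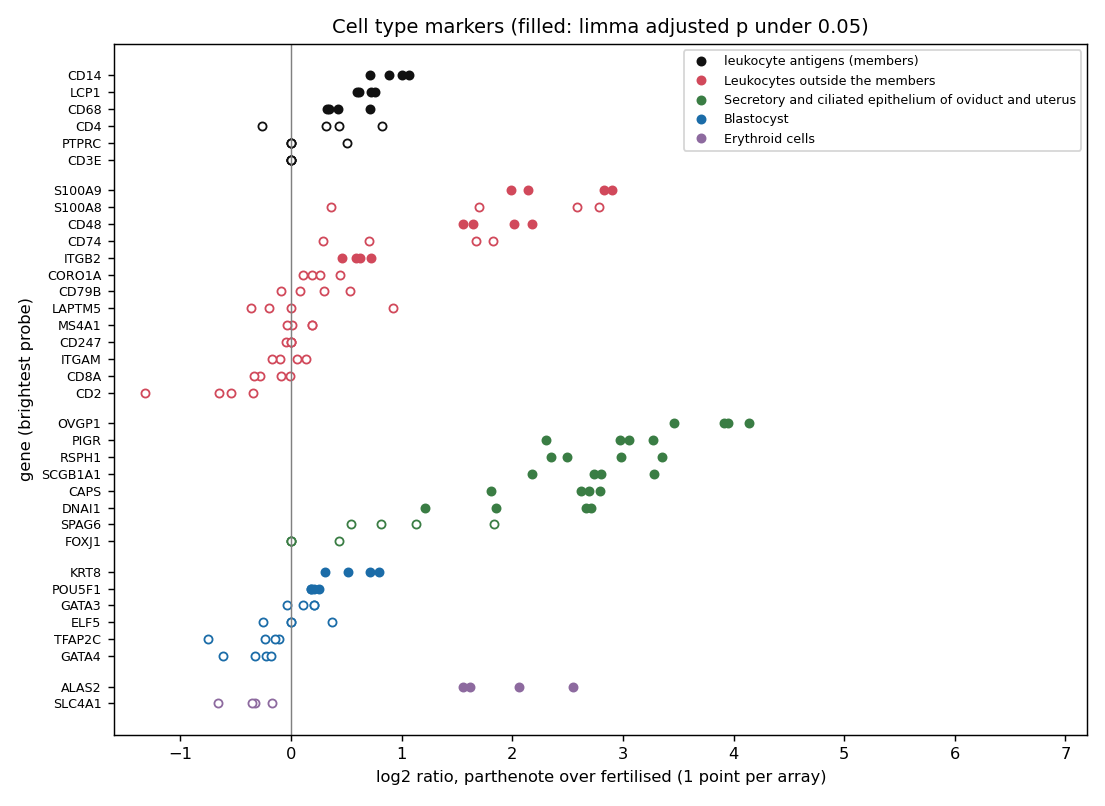
Log2 ratio of parthenote over fertilised (x axis) on each of the 4 arrays for the leukocyte antigens and for marker lists of leukocytes, tract epithelium, blastocyst and erythroid cells (y axis, brightest probe of each gene). Filled symbols passed limma. OVGP1, SCGB1A1, PIGR and RSPH1 lie above 2 on every array. PTPRC and CD3E were at background in both groups. Their ratio of 0 on at least 3 arrays was set by the software and is not a measured lack of change.

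Other products named after these cytokines were better measured, with 51 of 71 probes detected. Of the 70 tested, 10 were higher (14.3%, beside 9.53% of all probes) and 1 was lower (1.43%, beside 11.1%). TNFAIP8L3, a phosphoinositide transfer protein, had the largest ratio. Its probe, at base 552 of the transcript and at chr17:21467724-21467783 on the plus strand of the unnamed build, is printed for that reason and has no capitals.
TNFAIP8L3: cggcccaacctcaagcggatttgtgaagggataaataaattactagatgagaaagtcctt
It gave 56.9, 111, 76.1 and 78.3 in parthenotes against 25.6, 15.5, 19.7 and 9.78 in fertilised embryos, a log2 ratio of 2.24 ± 0.86 (SD, n = 4, adjusted p = 0.042), and the groups did not overlap. It was above background on 4 parthenote and 3 fertilised arrays. Its paralogue TNFAIP8, an inhibitor of cell death, passed on 5 of 5 overlapping probes, at 0.45 to 0.73. CMTM5, a chemokine-like membrane protein, passed on 4 of 5 at 0.82 to 0.99, and the remaining probe gave 0.78 (adjusted p = 0.061). TMED1, a vesicle protein that binds the interleukin-1 family receptor IL1RL1, was lower by -0.47 ± 0.19 (adjusted p = 0.046). An ERAP1 probe was above background on 4 fertilised arrays and 0 parthenote arrays, but its spot was marked as non-uniform on all arrays and was left out of the fit. The 2 ERAP1 probes that were tested gave log2 ratios of -0.22 and -0.02, and 0 passed.

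Genes of cytokine signalling outside the members showed no common direction. Of 30 genes with a probe, 4 were higher in parthenotes and 3 were lower, a share of 23.3% beside 23.8% of all named genes tested by their brightest probe. The higher ones included JAK1 (0.46), the NF-kappaB inhibitor NFKBIA (0.26) and TLR4, the lipopolysaccharide receptor that acts with CD14. TLR4 was above background on 1 parthenote array. The lower ones were JAK2 (-1.44, adjusted p = 0.0074), STAT3 (-0.45) and SOCS5 (-0.63). The median log2 ratio of the 30 was -0.10, and that of all named genes was 0.00.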

How the data were processed

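RNA of 4 pools of parthenotes (Cy3) and 4 pools of fertilised embryos (Cy5) was hybridised on 4 arrays of a single slide. The authors extracted spots with Agilent Feature Extraction 10.10.1.1. The deposited processed intensity is background-subtracted and dye-normalised, and the deposited log10 ratio is Cy5 over Cy3, set to 0 where both channels hold a surrogate. The authors' value table holds this log10 ratio with the sign turned.

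Here ratios were turned to log2 of parthenote over fertilised, and marked spots (26 to 48 per array) were left out. Probes measured on 3 or 4 arrays entered limma 3.58.1 (R 4.3.3, lmFit, eBayes, two-sided), adjusted by Benjamini-Hochberg over 43595 probes, with a threshold of 0.05. Probes whose ratio was 0 on every array were part of this fit and of its shared variance. With dim probes left out, the adjusted p in limma moved from 0.0178 to 0.0018 for the brightest CCL2 probe. For the brightest CXCL8 probe it moved from 0.038 to 0.045. The channels of an array are the pairing. Their deviations from the group means correlated by 0.60 to 0.65, and by -0.21 with other arrays. The value of -0.21 follows from centring each group over the 4 arrays and is not a separate result. Nothing states that pools came from separate does, so p-values measure the spread between these pools. The number of arrays limits the precision. In simulated data with this spread, a 1.5-fold change was found for 14 of 50 altered probes and a 5-fold change for 38 of 50. Only 50 probes at each of 1.5, 2, 3 and 5-fold were altered, far fewer than the 8996 that passed here. The adjustment was therefore stricter there. Probes whose ratio was 0 on every array entered the simulation with a spread of 0. These counts therefore do not give the recovery of the test in the data.

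Well above background is the flag of the scanner software. A fold "at least N" sets the bright group against the lowest signal well above background, per array, after normexp (offset 50), loess and Aquantile, which compresses low values and can carry dye bias. The bright group is averaged over all 4 arrays. The bounds of the CCL2 and IL1B probes above background on 3 parthenote arrays are therefore not strict. Before that step, the local background of a few spots that lay far above their signal (8 in Cy3 and 10 in Cy5 on array 2, 1 in each on array 4) was replaced by the array median, a repair chosen after the data were seen.

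Symbols came from rabbit RefSeq accessions or gene identifiers (assembly mOryCun1.1, names only) or the array's descriptions. Each gene was represented by its brightest probe. Named genes were up to 5 per role and direction past the threshold with 1 sign on 4 arrays and above background, the listed antigens, members the study names, and probes above background in 1 group only. Genes and probes outside this rule were chosen after their values were seen. Members and lists were chosen with earlier results of these data known. Individual values of some genes are not reported here.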

Additional observations from a re-analysis of the deposited data

Results flagged for a closer look

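The log2 ratios of 33 named probes were examined for an array far from the other 3, and about 1 in 20 groups is marked by chance. CCL2 was marked for array 1, whose ratio of 1.77 lay apart from 2.88 to 3.05 on the others, a gap of 0.862 of the range. The IL15 probe A_04_P075351 was marked for array 3, at 3.79 against 3.00 to 3.04, a gap of 0.946 of the range. PTPRC was marked with a gap of 1 of the range, because its ratio was 0.00 on 3 arrays and 0.50 on array 4, where it was at background in both channels.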

How the results depend on the processing

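Beside the 61 member probes that passed (43 higher and 18 lower in parthenotes), normexp with loess gave 29 (20 and 9), the methods' t-test 34 (27 and 7), and normexp with median centring 296 (243 and 53). Of those 296, 182 were on probes at background everywhere and 45 were among the 61. The ratio of processed intensities, without the authors' zeros for surrogate pairs, gave 238 (204 and 34), of which 150 were on probes at background everywhere, and it moved the median of the members to 0.33 and of all probes to 0.08. Without the pairing of channels by array (no replicate block) 201 passed (177 and 24), 129 of them at background everywhere. Normexp with loess after the background repair, chosen after seeing the data, gave 92 (68 and 24). Keeping marked spots, leaving out dim probes, and an intensity trend with robust variances gave 51 to 62. Of the 62 that passed with dim probes left out, 39 were among the 61. The share called higher was 70.5%, and was 82.1% with median centring, 85.7% with processed intensities, 88.1% without the pairing, 58.1% without dim probes, and 74.5%, 50%, 73.3% and 58.3% without arrays 1 to 4 in turn. Of the probes that passed both here and under an alternative, 0 changed sign.

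Leaving out 1 array gave 12 to 47 probes, 7 to 35 higher and 4 to 12 lower. Of 27 named probes that passed, 23 missed the threshold without some array, and CXCR2, LCP1, VR02VL and the brightest IL1RN probe did not. The sign turned for CXCL8 with the mean of all its probes (0.28) and for the IL2RA-like transcript with median centring (0.077). The cause of these shifts was not tested. For the 52.0% of members at background on every array, of which 11 probes passed, the size of a difference was not measurable.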

Other observations

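IRAK1BP1, which binds a kinase of interleukin-1 signalling, gave log2 ratios of 0.38 to 0.58 over its 5 probes. Array 2 was the lowest on each of them, and 0 of the 5 passed. IL12B, a subunit of interleukin-12, was above background on 3 fertilised arrays and 0 parthenote arrays, at 9.93 to 29.5 against 4.99 to 14.3 (adjusted p = 0.091 in limma).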
